A study of Mus musculus with 8 samples.

Results

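Slc1a3, Fabp7, Prom1, Msi1 and Hmga2 are 5 genes used as markers of radial glia, the stem cells of the embryonic cortex, and they were read from all 43629 gene IDs of the deposited tables by their gene symbols. All 5 were found once each, and all passed the filter on low counts that left 15382 of the 25299 genes with any count. RNA was sequenced from the dorsal forebrain of male mouse embryos at E12.5, whose strain was a mixed background with C57BL/6J. In the Sufu-cKO group Mut_295, Mut_317, Mut_337 and Mut_340 were Emx1-cre/+;Sufu-fl/fl. The 4 controls, named Cont_294, Cont_345, Cont_365 and Cont_370, were Sufu-fl/fl or Sufu-fl/+, so a floxed Sufu allele was present in both groups. Their label names no Cre, so the presence of Emx1-cre and the loss of Sufu cannot be told apart. Emx1-cre acts in progenitors of the dorsal telencephalon and in their descendants. Vessels, microglia and other cells of the dissected tissue would thus keep SUFU, which was not measured by cell type. Whether the samples of a genotype are separate embryos is not in the labels. The p-values therefore measure the spread of these samples alone, and that spread may be technical.

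Radial glia span the wall of the developing cortex, with an apical end foot at the ventricle and a basal process at the brain surface, and they divide to give neurons directly or through intermediate progenitors. SUFU holds GLI transcription factors in check, and its loss lets hedgehog target genes be transcribed. The 5 genes cover different parts of radial glial biology. Slc1a3 encodes GLAST, a glutamate and aspartate transporter of the plasma membrane, and Fabp7 encodes BLBP, a carrier of long-chain fatty acids that is known as a target of NOTCH signalling. Prom1 encodes prominin-1 (CD133), a membrane protein of apical protrusions. Msi1 encodes Musashi-1, an RNA-binding protein that represses translation in neural stem cells, and Hmga2 encodes a chromatin protein of young stem cells that declines with age and whose mRNA is a target of let-7 microRNAs.

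Upstream sequences of Slc1a3 and Fabp7 are shown because these genes had the highest and the lowest fold change of the 5, and because SUFU acts on GLI factors and Fabp7 is known to be controlled by NOTCH through RBPJ. They are RefSeq sequences on GRCm38.p6, read 5′ to 3′ on the strand of the gene, and end before the first annotated base of the transcript in RefSeq and in the deposited table. The Slc1a3 stretch is chr15:8710808-8711057 on the minus strand (250 bases), and the Fabp7 stretch is chr10:57784673-57784880 on the plus strand (208 bases). Capitals mark matches, on either strand, to the RBPJ motif TGGGAA or to the CCAAT box.
Slc1a3: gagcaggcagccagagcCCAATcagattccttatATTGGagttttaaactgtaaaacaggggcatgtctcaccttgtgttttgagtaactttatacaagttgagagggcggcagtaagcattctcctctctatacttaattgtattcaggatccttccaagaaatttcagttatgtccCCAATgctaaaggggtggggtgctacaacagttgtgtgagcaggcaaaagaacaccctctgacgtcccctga
Fabp7: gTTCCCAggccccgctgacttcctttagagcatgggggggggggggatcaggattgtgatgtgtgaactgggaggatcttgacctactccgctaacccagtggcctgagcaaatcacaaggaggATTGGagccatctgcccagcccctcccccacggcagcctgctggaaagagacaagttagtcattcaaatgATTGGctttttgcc

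The Slc1a3 stretch held 3 CCAAT boxes and no RBPJ motif, and the Fabp7 stretch held 2 CCAAT boxes and 1 RBPJ motif. The GLI motif TGGGTGGTC, searched on both strands, was in neither. Of all 32851 RefSeq windows of 250 bases before a gene start, 0.23% held the GLI motif, 21.6% the RBPJ motif and 33.8% a CCAAT box. The motifs do not overlap each other in these stretches. Windows were found for 4 of the 5 genes, and those of Prom1 and Hmga2 held no GLI motif either. A match of letters is a description and not a site of binding, and the absence of these letters from this window says nothing of GLI binding elsewhere.

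Total counts lay between 27514357 and 34878838 per sample, and each of the 5 genes had at least 2822 counts in every sample. Sufu, the deleted gene, went from 112 ± 9.13 to 40.6 ± 4.64 CPM (CPM are counts relative to library size, after TMM scaling; SD, n = 4 each), and the hedgehog target Gli1 rose from 2.65 ± 0.993 to 49.5 ± 3.93 CPM. Each library thus matched its label in these genes. All 7 listed genes of dorsal forebrain identity were measured, and their summed level was lower in Sufu-cKO (1488 to 1732 CPM, where control had 1790 to 2001 CPM). Of these 7, Emx1 (log2 fold change -0.73), Emx2 (-0.72), Lhx2 (-0.51) and Neurog2 (-0.48) fell, and Pax6 (0.54) and Tbr1 (0.29) rose, where 11.0% of all tested genes were called. Emx1-cre is named for the Sufu-cKO group only, and its part in the Emx1 value was not tested. The part of these 7 genes in the values of the 5 radial glia genes was not tested. Of 8 genes of midbrain, hindbrain and spinal cord only 1 had enough counts to be tested, with Hoxb2, Hoxb3 and Hoxc8 at 0 in all 8 samples. Mut_340 stood apart by its low summed level of 10 choroid plexus genes (96.9 CPM, where Mut_295, Mut_317 and Mut_337 had 267 to 299 CPM and control 537 to 819 CPM), and Mut_337 by its high summed level of 8 mesenchyme genes (1575 CPM, against 718 to 948 in all other samples).

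Slc1a3 alone among the 5 genes changed between the genotypes by edgeR's test over all genes. In control it had 115 CPM in Cont_294, 103 in Cont_345, 123 in Cont_365 and 112 in Cont_370. The Sufu-cKO samples had 281 CPM in Mut_295, 251 in Mut_317, 274 in Mut_337 and 337.1 in Mut_340. Every Sufu-cKO sample was thus above every control sample, and the highest, Mut_340, was farthest from the rest. Slc1a3 (ENSMUSG00000005360, chromosome 15, 8634124 to 8710764, GRCm38) rose 2.53-fold, from 113 ± 8.16 to 286 ± 36.7 CPM (n = 4 each), with a 95% interval of 2.21 to 2.89 for the fold (log2 fold change 1.34, SE 0.088; edgeR, adjusted p = 2.88e-06). It ranked at place 27 of the 15382 tested genes by p. Of the tested genes 11.0% were called at an adjusted p under 0.05 (5.34% higher and 5.64% lower), and 1 of these 5 genes was called.

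**Figure D1:**
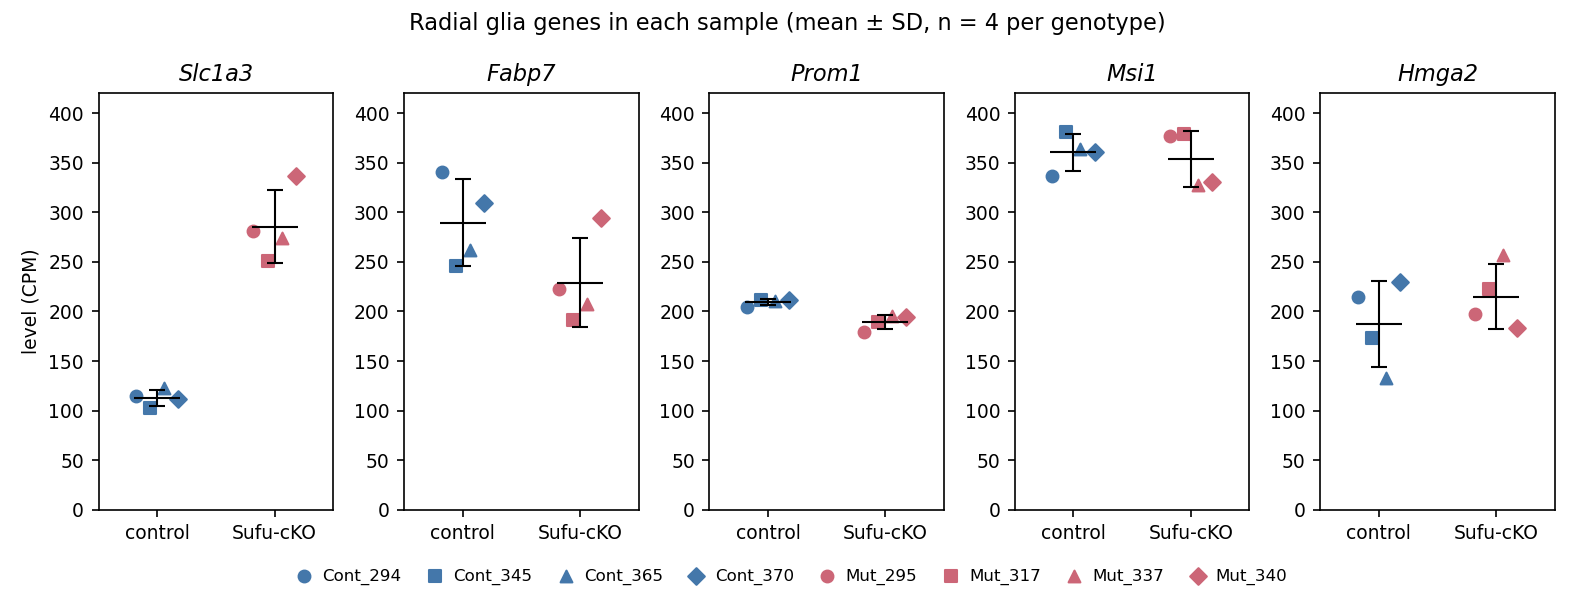
Level of each gene (vertical axis, CPM from 0) in the 4 control samples (blue) and the 4 Sufu-cKO samples (red), 1 symbol per sample, with the mean and SD in black. Slc1a3 lies between 103 and 123 CPM in control and between 251 and 337.1 CPM in Sufu-cKO, while Fabp7, Msi1 and Hmga2 overlap between the genotypes and Prom1 is slightly lower in all Sufu-cKO samples.

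Without Mut_340, the library highest for Slc1a3 and lowest for choroid plexus genes, Slc1a3 was still called (log2 fold change 1.24; edgeR, adjusted p = 2.59e-06). Choroid plexus genes were lower in Sufu-cKO, with 6 of 10 called and none at 0, where 5.64% of all tested genes were called lower. The summed level of 11 GABAergic genes ranged from 70.03 to 194 CPM for control and from 86.8 to 274 CPM in Sufu-cKO. Of these 11, 1 was called higher, a share near the 11.0% called over all tested genes (5.34% higher). With the mean of the choroid plexus list as a covariate the log2 fold change of Slc1a3 was 1.06 (edgeR, adjusted p = 0.00395), and with that of the GABAergic list 1.24 (adjusted p = 5.3e-05). The choroid plexus sums of the genotypes do not overlap, so that this covariate and the genotype are hard to tell apart, and only 186 of all genes were called with it. In bulk tissue a change in the number of cells of a type and a change in RNA per cell cannot be told apart.

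Fabp7 did not rise with Slc1a3. Its control values were 341 CPM in Cont_294, 246 in Cont_345, 262 in Cont_365 and 310 in Cont_370. In the Sufu-cKO group it had 223 CPM in Mut_295, 192 in Mut_317, 208 in Mut_337 and 294.5 in Mut_340. The first 3 of these lay below all controls, and Mut_340 lay within the control range. The means were 290 ± 43.6 and 229 ± 45.3 CPM (n = 4 each), and Fabp7 (ENSMUSG00000019874, chromosome 10, 57784881 to 57788450) was not called (log2 fold change -0.34, SE 0.148; edgeR, adjusted p = 0.221). The 95% interval of the fold ran from 0.63 to 1.0. Without Mut_340 the gene was called lower (log2 fold change -0.49; edgeR, adjusted p = 0.0297), but not when any of the other 7 samples was dropped instead. With the choroid plexus covariate its log2 fold change was -0.84 (edgeR, adjusted p = 0.116), and with the GABAergic covariate -0.49 (adjusted p = 0.148).

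Prom1 had the smallest spread of the 5 genes. Control samples had 205 CPM in Cont_294, 211 in Cont_345, 211 in Cont_365 and 212 in Cont_370, and Sufu-cKO samples had 180 CPM in Mut_295, 189 in Mut_317, 195 in Mut_337 and 194 in Mut_340. The genotypes did not overlap for Prom1 and Slc1a3, 2 of the 5 genes, and they did not overlap for 16.2% of all tested genes (8.33% higher and 7.86% lower in Sufu-cKO). The difference was nevertheless small, with means of 210 ± 3.35 and 189 ± 7.06 CPM (n = 4 each) and a fold of 0.90 (95% interval 0.84 to 0.97). Prom1 (ENSMUSG00000029086, chromosome 5, 43993625 to 44102032) was not called by edgeR (log2 fold change -0.15, SE 0.0478; adjusted p = 0.0755), but was called lower by DESeq2 (adjusted p = 0.0265) and, in edgeR, with 2 other scalings of the libraries and with a stricter filter on low counts (adjusted p from 0.0325 to 0.0483).

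Msi1 was level between the genotypes. Its values were 336 CPM in Cont_294, 382 in Cont_345, 364 in Cont_365 and 361 in Cont_370, against 377 CPM in Mut_295, 380 in Mut_317, 328 in Mut_337 and 331 in Mut_340. The 2 groups covered nearly the same range. Msi1 (ENSMUSG00000054256, chromosome 5, 115429599 to 115455698) averaged 361 ± 18.6 CPM and 354 ± 28.4 CPM in the 2 genotypes (SD, n = 4 each; log2 fold change -0.03, SE 0.0652; edgeR, adjusted p = 0.865). The 95% interval of the fold was 0.89 to 1.08, so a difference as large as that of Slc1a3 lay far outside it.

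Hmga2 varied most between samples of 1 genotype. Control values were 215 CPM in Cont_294, 173 in Cont_345, 133 in Cont_365 and 230 in Cont_370. The Sufu-cKO values were 197 CPM in Mut_295, 223 in Mut_317, 257 in Mut_337 and 183 in Mut_340, and the groups overlapped widely. Hmga2 (ENSMUSG00000056758, chromosome 10, 120361275 to 120476469) averaged 188 ± 43.6 CPM and 215 ± 32.6 CPM (SD, n = 4 each; log2 fold change 0.20, SE 0.179; edgeR, adjusted p = 0.604), with an interval of 0.86 to 1.53 for the fold. The estimate rested partly on Cont_365, the lowest sample (log2 fold change 0.06 without it), and on Mut_337, the highest sample (0.09 without it). Mut_337 was also the library with the high mesenchyme signal, whose part in the Hmga2 value was not tested.

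The authors' deposited table gave similar folds for the 5 genes. In it the fold change of Slc1a3 was 2.526, with a false discovery rate of 3.71e-20. The other folds in the authors' deposited table were 0.79 for Fabp7, 0.903 for Prom1, 0.98 for Msi1 and 1.146 for Hmga2, and none had a false discovery rate under 0.05. That of Prom1 was 0.71 by the authors' test, farther from a call than by edgeR here (adjusted p = 0.0755). Antisense genes that share exon positions with Prom1 (Gm16401, 55 to 105 counts per sample) and Hmga2 (1700006J14Rik, 7 to 61 counts) had few reads beside these genes, which had at least 4209 counts in every sample. The other 3 genes overlapped no annotated exon of another gene.

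The difference between the genes was also compared within each sample, where library size cancels. The CPM ratio of Slc1a3 to Fabp7 was 0.34 in Cont_294, 0.42 in Cont_345, 0.47 in Cont_365 and 0.36 in Cont_370. In the Sufu-cKO samples the ratio was 1.26 in Mut_295, 1.31 in Mut_317, 1.32 in Mut_337 and 1.14 in Mut_340. Counts of Fabp7 thus exceeded those of Slc1a3 in every control sample and fell short of them in every Sufu-cKO sample. The log2 ratio differed by 1.68 between the genotypes (-1.35 ± 0.21 in control and 0.33 ± 0.09 in Sufu-cKO, SD, n = 4 each; exact permutation test, 2-sided, p = 0.0286, adjusted p = 0.0714).

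All 10 pairs of the 5 genes were tested in this way. The log2 ratio of Slc1a3 to Prom1 was higher in Sufu-cKO by 1.48, that to Msi1 by 1.36 and that to Hmga2 by 1.12, each without overlap of the genotypes and with p = 0.0286 (exact permutation test, 2-sided), the smallest that 4 samples against 4 allow. After Benjamini-Hochberg adjustment over the 10 pairs each of these 4 comparisons had an adjusted p of 0.0714, above the threshold of 0.05. With only 4 of 10 pairs at the smallest p, no adjusted p could be under 0.05. In the 6 pairs without Slc1a3 the genotypes overlapped, with differences from -0.56 (Fabp7 to Hmga2) to -0.12 (Prom1 to Msi1) and exact permutation p from 0.114 to 0.343.

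Levels of different genes were compared per exon length, as RPKM (CPM divided by exon length in kilobases). Exon length is that covered by the exons of all annotated transcripts of a gene, so an order of genes depends on it. In control Fabp7 was highest, at 232 ± 34.9 RPKM, followed by Msi1 at 62.2 ± 3.2, Prom1 at 29.2 ± 0.467, Hmga2 at 27.7 ± 6.43 and Slc1a3 at 13.2 ± 0.955 (SD, n = 4). Prom1 and Hmga2 did not differ beyond their spread, and each was the higher of the 2 in 2 control samples. Slc1a3 was the lowest of the 5 in all 4 control samples. In Sufu-cKO the top of the order was the same, with Fabp7 at 183 ± 36.3 and Msi1 at 61 ± 4.9 RPKM. Slc1a3 had moved to 33.5 ± 4.3 RPKM there, beside Hmga2 at 31.8 ± 4.81 and above Prom1 at 26.4 ± 0.984. Slc1a3 and Hmga2 did not differ beyond their spread in Sufu-cKO, while Slc1a3 was above Prom1 in all 4 samples.

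Spread between samples of a genotype differed widely among the 5 genes. The coefficient of variation in control was 1.6% for Prom1, 5.15% for Msi1, 7.22% for Slc1a3, 15% for Fabp7 and 23.2% for Hmga2, where the median of the 2836 tested genes with at least 100 CPM in control was 4.65%. Fabp7 varied more than 98.1% of those genes and Hmga2 more than 99.4%, while Prom1 varied more than only 3.3%. The same order of extremes was not kept in Sufu-cKO, where Fabp7 had the highest value of the 5 (19.8%), followed by Hmga2 (15.2%), Slc1a3 (12.8%), Msi1 (8.02%) and Prom1 (3.73%). The interval around the Fabp7 and Hmga2 differences is wide for this reason, and that around Prom1 narrow.

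**Figure D2:**
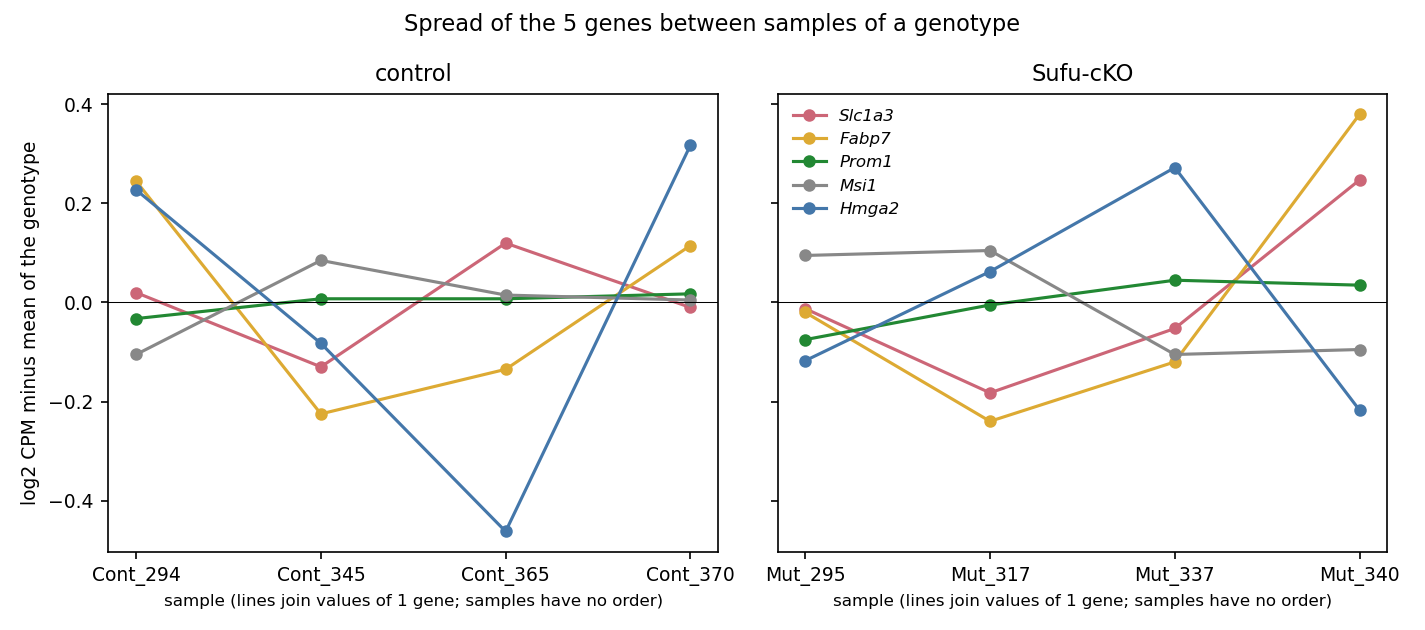
Deviation of each gene (log2 CPM, vertical axis) from its own mean in the genotype, in the 4 control samples (left) and the 4 Sufu-cKO samples (right); lines join the values of 1 gene and imply no order of samples. Prom1 stays near 0 in both panels, Slc1a3 and Fabp7 are both highest in Mut_340 and lowest in Mut_317, and Hmga2 is lowest in Cont_365 and Mut_340.

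Within the Sufu-cKO group Slc1a3 and Fabp7 ranked the samples in the same order, with Mut_340 highest, then Mut_295, Mut_337 and Mut_317. Their log2 ratio accordingly had an SD of only 0.09 there, against 0.21 in control, where the ranks differed. Hmga2 ranked the Sufu-cKO samples differently, with Mut_337 highest and Mut_340 lowest. With 4 samples in a group these ranks are a description.

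Slc1a3 belongs to a family of 7 transporters, of which Slc1a1, Slc1a2, Slc1a3, Slc1a6 and Slc1a7 carry glutamate and aspartate and Slc1a4 and Slc1a5 carry neutral amino acids. Slc1a2, which encodes GLT-1, the other main glutamate transporter of glia, rose too. It had 36.6, 33.4, 33.0 and 44.0 CPM in Cont_294, Cont_345, Cont_365 and Cont_370 and 72.7, 61.5, 77.7 and 95.6 CPM in Mut_295, Mut_317, Mut_337 and Mut_340. The groups did not overlap, and Mut_340 was again the highest and Mut_317 the lowest Sufu-cKO sample (log2 fold change 1.06, SE 0.137; edgeR, adjusted p = 0.000761). Slc1a4 fell, by 0.26 on the log2 scale (edgeR, adjusted p = 0.0228), and it stayed called in 5 of the 8 leave-one-out fits, in which each sample was dropped in turn, but not without Cont_294, Cont_365 or Mut_317 (adjusted p up to 0.0747). Slc1a1 (-0.19), Slc1a5 (-0.18) and Slc1a6 (0.20) were not called, and Slc1a7 had too few counts to be tested. Slc1a2 was not called with the choroid plexus list as a covariate (log2 fold change 0.59; edgeR, adjusted p = 0.198).

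**Figure D3:**
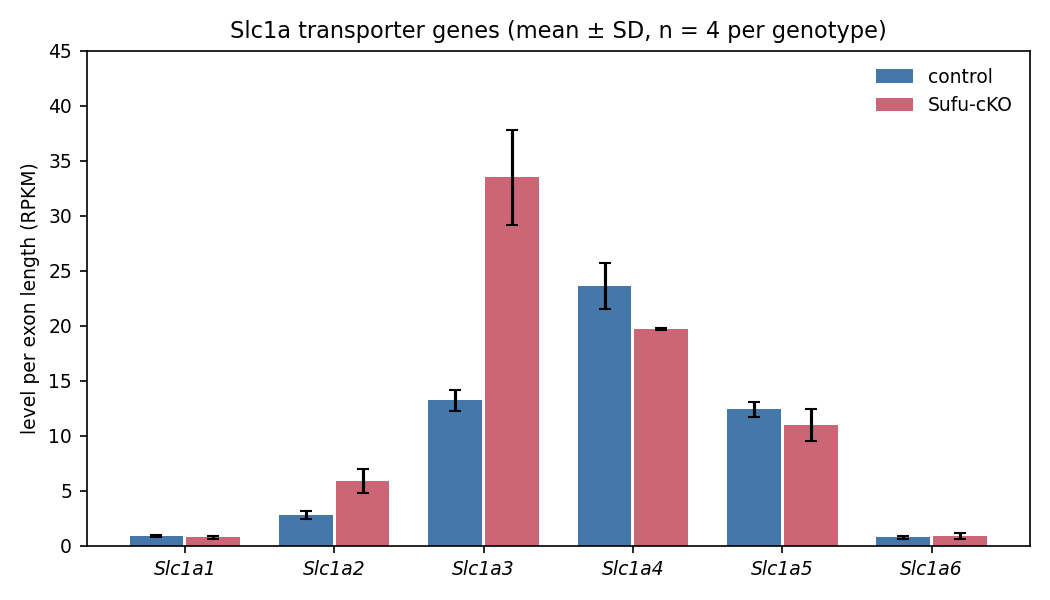
Level per exon length (RPKM, vertical axis from 0) of the 6 tested Slc1a genes in control (blue) and Sufu-cKO (red), as mean and SD of 4 samples. Slc1a3 goes from 13.2 to 33.5 RPKM and by this measure passes Slc1a4, which goes from 23.6 to 19.7 RPKM. In CPM Slc1a3 is already above Slc1a4 in control (means of 113 and 92.6 CPM).

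In RPKM Slc1a3 made up 24.7 ± 0.895% of the summed Slc1a family in control and 46.6 ± 2.41% in Sufu-cKO (SD, n = 4 each), without overlap, and the family total went from 53.7 ± 2.58 to 71.6 ± 5.7 RPKM. The size of these shares depends on the exon lengths used. Of all 13 tested genes listed for glutamate transport and use, 2 rose, 2 fell and 9 did not pass, where 5.34% of all tested genes rose and 5.64% fell (median log2 fold change -0.14, against 0.007 over all tested genes). The rises were Slc1a2 and Glul, the glutamine synthetase of glia (log2 fold change 0.18; edgeR, adjusted p = 0.0311), and the falls were Slc1a4 and Slc38a3, a glutamine transporter (-0.71; edgeR, adjusted p = 0.00335). Glul was called only when Mut_295 or Mut_317 was the sample dropped (adjusted p up to 0.113 in the other 6). None of these 4 calls was made with the choroid plexus covariate, and 2 of the 4 with the GABAergic covariate. Calls over all tested genes went from 1689 to 186 with the former and to 782 with the GABAergic one. Slc38a1, a neuronal glutamine transporter, stood at -0.14 and was not called.

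Fabp7 was by far the most abundant of the fatty acid binding protein genes, with 90.5 ± 2.03% of their summed RPKM in control and 88.6 ± 1.52% in Sufu-cKO (SD, n = 4 each). Fabp5, a carrier of fatty acids found in many tissues, had 83.4 ± 10.8 and 80.3 ± 5.96 CPM (log2 fold change -0.06; edgeR, adjusted p = 0.783), and Fabp3 had 0.325 ± 0.115 and 0.501 ± 0.0885 CPM (adjusted p = 0.306). Fabp1, Fabp6, Fabp9 and Pmp2 were at 0 in every sample. Near-identical copies make Fabp5 and Fabp3 counts less certain, since the table also holds Fabp5l2 and Fabp3-ps1. Of 12 tested genes for fatty acid binding and handling 1 rose and 11 did not pass, a share near the 11.0% called over all tested genes (median log2 fold change 0.07). The 1 was Fads2, a desaturase (0.21; edgeR, adjusted p = 0.0349), which stayed called only without Mut_340 among the leave-one-out fits (adjusted p up to 0.108 in the others) and with neither covariate, while Fads1 (0.12) and Dbi (0.08), an acyl-CoA binding protein, were not called.

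Prom1 had next to no paralog signal, as Prom2 had 3 counts in Mut_337 and 0 in the other 7 samples. Among 16 tested genes of the apical membrane and adherens junction, which hold radial glial end feet together, 3 rose, 2 fell and 11 did not pass, where 11.0% of all tested genes were called (median log2 fold change 0.11). Pard3, a scaffold of the apical polarity complex, fell, with means of 180 ± 13.6 CPM for control and 130 ± 2.25 CPM for Sufu-cKO (log2 fold change -0.47; edgeR, adjusted p = 0.000319). Numb, a polarity protein whose mRNA is a known target of Musashi-1, fell by 0.24 on the log2 scale (adjusted p = 0.0316). Crb2, an apical polarity protein (0.34), Ctnna2, the alpha-catenin of neurons (0.29), and Ctnnb1 (0.21) rose. Pard3 stayed called in all 8 leave-one-out fits. Ctnna2 was not called without Cont_294, Cont_345, Mut_337 or Mut_340 (adjusted p up to 0.083), and Crb2 was called only without Cont_345, Mut_317 or Mut_340 (up to 0.0831 otherwise). Numb was called only without Cont_294 or Mut_317 (up to 0.0884 otherwise), and Ctnnb1 only without Mut_295 (up to 0.086 otherwise). With the choroid plexus covariate 0 of these 5 genes were called (Pard3 -0.42; edgeR, adjusted p = 0.116), and with the GABAergic covariate 2, Pard3 and Crb2. Of all tested genes 186 were called with the choroid plexus covariate and 782 with the GABAergic one, against 1689 with neither. Cdh2, the cadherin of these junctions (0.14), and Cdc42 (0.04) were not called.

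Msi2, the paralog of Msi1, rose while Msi1 did not. Msi2 had 308, 298, 255 and 260 CPM in Cont_294, Cont_345, Cont_365 and Cont_370 and 378, 373, 356 and 422 CPM in Mut_295, Mut_317, Mut_337 and Mut_340. No Sufu-cKO sample was as low as a control (log2 fold change 0.45, SE 0.0755; edgeR, adjusted p = 0.00235). Msi1 accordingly went from 69.8 ± 2.59% to 62.4 ± 2.82% of the summed RPKM of the pair (SD, n = 4 each), without overlap between the genotypes. Of 15 tested genes for RNA-binding proteins of progenitors and neurons, 2 rose, 0 fell and 13 did not pass, a share near the 11.0% called over all tested genes (median log2 fold change 0.09). The other rise was Qk, which encodes a splicing regulator of neural progenitors and glia (0.35; edgeR, adjusted p = 0.00763), while Ptbp2 (-0.09) and Pum2 (-0.12) were not called. Msi2 and Qk stayed called in all 8 leave-one-out fits and with the GABAergic covariate. Neither was called with the choroid plexus covariate, where the log2 fold change was 0.26 for Msi2 (edgeR, adjusted p = 0.414) and 0.09 for Qk (adjusted p = 0.734). Calls over all tested genes were 1689 without a covariate, 782 with the GABAergic and 186 with the choroid plexus covariate.

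None of the 13 tested genes listed with Hmga2 for the Hmga and Lin28 axis was called by edgeR (median log2 fold change 0 to 2 decimals), where 11.0% of all genes were. At an unadjusted p under 0.05 there was 1, Lin28b, and DESeq2 and limma-voom each called 1. Igf2bp1 and Igf2bp2, RNA-binding proteins of early progenitors, lay at 0.00 and -0.07.

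Other radial glia genes changed in both directions. Of 27 tested, 10 rose, 3 fell and 14 did not pass (median log2 fold change 0.08), where 5.34% of all genes rose and 5.64% fell. Ptprz1, a receptor phosphatase of radial glia, rose most, with 181, 151, 142 and 215 CPM in Cont_294, Cont_345, Cont_365 and Cont_370 and 420, 389, 456 and 530 CPM in Mut_295, Mut_317, Mut_337 and Mut_340. The groups lay far apart, and the log2 fold change of Ptprz1 (1.38, SE 0.142; edgeR, adjusted p = 0.000319) was close to that of Slc1a3. Pdpn, a membrane glycoprotein, rose by 1.11 (edgeR, adjusted p = 2.76e-05), Pax6 by 0.54 and Vim, an intermediate filament gene, by 0.43. Veph1 (0.96), Sox2 (0.58), Hopx (0.53), Nes (0.42), Pea15a (0.35) and Ednrb (0.32) were the other rises. The 3 that fell were Fam107a (-1.06), Ttyh1, a chloride channel gene (-0.71), and Id4, an inhibitor of bHLH factors (-0.55). Ednrb lost its call without Cont_294, Cont_345, Cont_365, Mut_337 or Mut_340 (adjusted p up to 0.103), and the other 12 were called in all 8 leave-one-out fits. With the GABAergic covariate 11 of the 13 stayed called, and with the choroid plexus covariate 2, Pdpn and Vim. Over all tested genes 782 were called with the GABAergic covariate and 186 with the choroid plexus covariate, against 1689 with neither. The log2 fold change of Ptprz1 was 0.97 with the choroid plexus covariate (edgeR, adjusted p = 0.098), that of Sox2 0.36 (adjusted p = 0.221) and that of Ednrb 0.04 (adjusted p = 0.911). Cdh2 and Notch1 (-0.04) had the highest CPM of those not called.

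**Figure D4:**
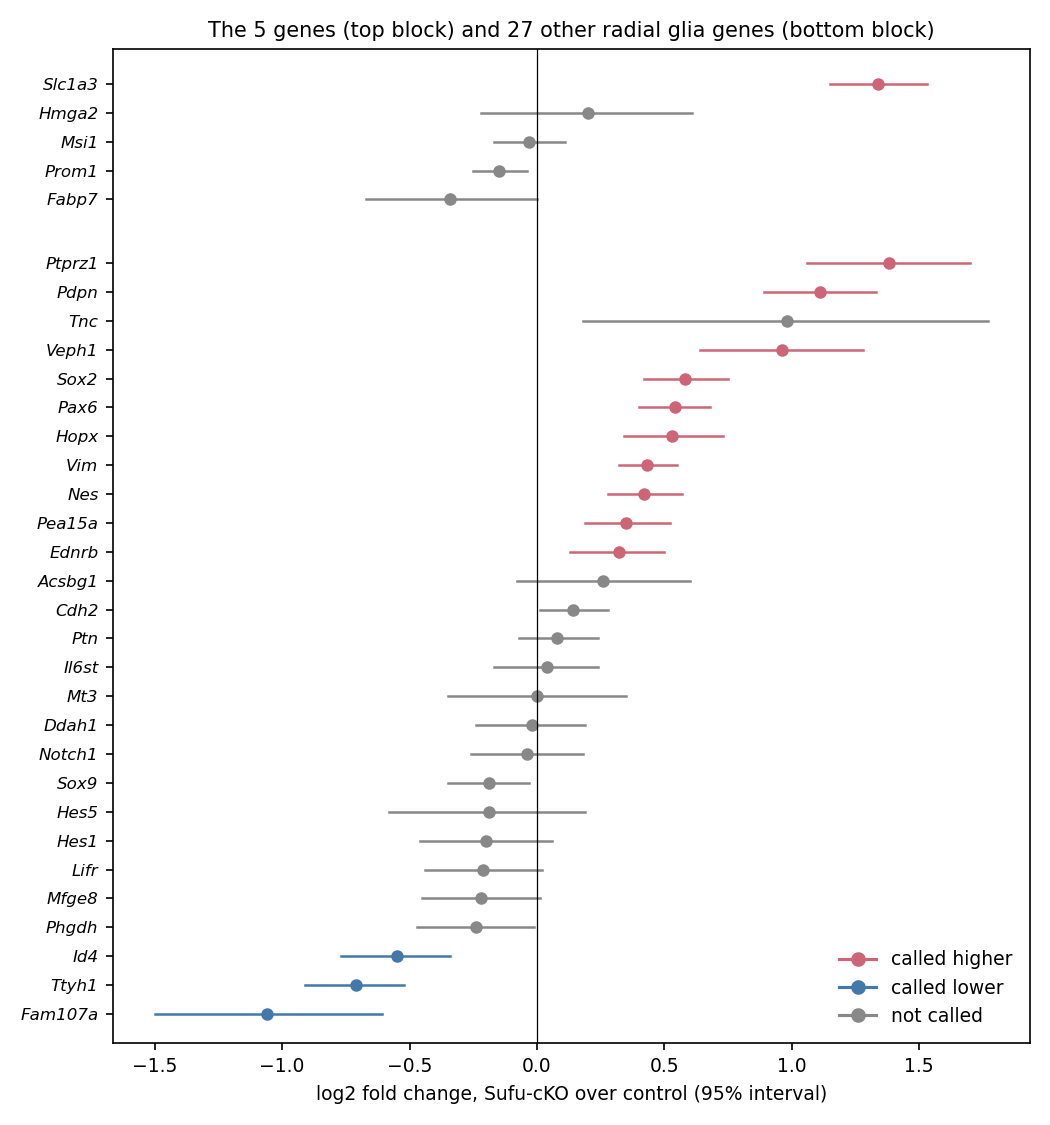
Log2 fold change, Sufu-cKO over control (horizontal axis), with 95% intervals, for the 5 genes (top) and the 27 other radial glia genes (bottom), coloured by edgeR's call. Slc1a3 stands at 1.34 beside Ptprz1 at 1.38 and Pdpn at 1.11, while the intervals of Hmga2 and Msi1 include 0. The interval of Prom1 runs from -0.25 to -0.04, and the wider one of Fabp7 from -0.67 to just below 0.

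The genes whose pattern over the 8 samples was most like that of Slc1a3 were sought among the 9570 named protein-coding genes that averaged 10 CPM or more, as the smallest root-mean-square difference in log2 CPM after each gene was centred on its mean. They were Cap2, an actin regulator (0.107), Actr3b, a subunit of the actin-nucleating ARP2/3 complex (0.125), Zhx2, a zinc finger and homeobox factor (0.128), Lonrf2 (0.135) and Pdpn (0.143). All 5 rose without overlap of the genotypes, by 1.11 to 1.36 on the log2 scale, since a change of that size is what the measure selects. Per exon length Pdpn was above Slc1a3 in control (18.6 RPKM) and the other 4 were below it, from 3.0 RPKM (Lonrf2) to 8.12 RPKM (Actr3b). The 8 samples share genotype and library between genes, so the likeness is a description.

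Summed levels of young neuron genes were higher in Sufu-cKO (2585 to 2782 CPM, against 2077 to 2418 in control, 6 of 10 called higher). Those of 7 pericyte genes were lower (170 to 227 against 261 to 288 CPM, 2 called lower). Notch3 was the largest part of this pericyte sum, with a Sufu-cKO mean of 87.9 against 131 CPM for control. The genotypes did not overlap for 3 of the 7 pericyte genes, and 5 were not called. The sums of 7 microglia genes were lower too (31.2 to 39.0 against 41.0 to 54.6 CPM, 4 called lower). Erythroid sums were also lower (3019 to 3476 against 3495 to 4516 CPM), with 0 of 8 genes called. Most of the erythroid sum was Hbb-y, with a Sufu-cKO mean of 2593 against 3104 CPM for control. Hbb-y was the only 1 of the 8 whose genotypes did not overlap. Of 8 endothelium genes 3 were called lower, but their sums overlapped between the genotypes. Sums of intermediate progenitor and ventral telencephalon genes overlapped as well. Over all tested genes 5.34% were called higher and 5.64% lower. No listed gene of young neurons, pericytes, microglia, erythroid cells or endothelium was at 0 in all samples. The part of these differences in the values of the 5 genes was not tested.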

How the data were processed

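Of the 2 deposited tables, the first holds raw gene counts of the 8 samples, the values tested here. The second, deposited by the authors, holds a normalised signal (each count times 1 factor per sample), and a fold change ratio with its p-value and false discovery rate. The submitters' processing notes name STAR 2.4.2a and GRCm38. Not given in the sources used here are the annotation, the authors' test, and how reads were counted, strand included. Groups come from the genotype labels. Value columns that matched no sample numbered 0.

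Counts were fitted in R 4.3.3 with edgeR 4.0.16 (filterByExpr, count minimum 10, total minimum 15, TMM factors, robust quasi-likelihood F-test, 2-sided). Benjamini-Hochberg adjustment ran over all 15382 tested genes, which held 99.94% of counts, and calls were made under an adjusted p of 0.05. SEs and 95% intervals were derived from the F statistic. Log2 CPM used a prior count of 2, and exon lengths for RPKM came from GENCODE M21. Every pair of samples in a group differed by more than sampling noise in a chi-square test of counts. On data simulated for this comparison (15382 genes) edgeR recovered 85% of 100 genes changed 2-fold and 66% of 100 changed 1.5-fold, with 9 false calls.

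The members and gene lists were chosen with earlier results of these data known. Genes named were the 5 genes, up to 4 called genes of each list by smallest p and its 2 most abundant uncalled genes, paralogs, the 5 genes most like each called member, and Sufu, Gli1 and Ptch1. Nes, Sox2, Hopx, Veph1, Pea15a, Ednrb, Id4, Ttyh1, Fam107a, Aldoc, Clu, Gja1, Ctnnb1, Lin28b, Slc1a5 and Slc1a6 were added after their values were seen. Alternatives were 3 other scalings, no filter, a filter of 1 CPM in at least 4 samples, limma-voom 3.58.1, DESeq2 1.42.0, no robust estimation, 1 surrogate variable (sva 3.50.0), each sample left out, and, added after the data were seen, covariates from 2 marker lists. Some genes that the rule would name are not reported here.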

Additional observations from a re-analysis of the deposited data

Results flagged for a closer look

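In the control group Prom1 had 205 CPM in Cont_294, apart from 211 to 212 CPM in the other 3 samples, by more than Dixon's 95% critical value for a group of 4 samples. The gap is a few percent of the level, and the sample lay above every Sufu-cKO sample. Chance flags about 1 in 20 groups, and 10 groups were examined (5 genes in 2 genotypes).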

How the results depend on the processing

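Slc1a3 kept its direction and its call under every alternative run, with log2 fold changes from 1.06 to 1.40. Leaving out each sample in turn gave 1.24 to 1.40 for Slc1a3, -0.49 to -0.25 for Fabp7, -0.17 to -0.12 for Prom1, -0.06 to 0.00 for Msi1 and 0.06 to 0.30 for Hmga2. Fabp7 was called lower without Mut_340 (-0.49) and with 1 surrogate variable (-0.50; edgeR, adjusted p = 0.0363), and was -0.84 with the choroid plexus covariate, uncalled. Prom1 was called lower by DESeq2 (-0.15), with total counts scaling (-0.16), with upper-quartile scaling (-0.17) and with at least 1 CPM in 4 samples (-0.16). Msi1 was above 0 without Cont_345 (0.00 to 2 decimals), with 1 surrogate variable (0.05) and with the choroid plexus covariate (0.07), and was called in none. Hmga2 was called in none and was 0.34 with the choroid plexus covariate. The cause of these shifts was not tested. The differences in log2 ratio between pairs kept their side of the threshold with a prior count of 0.5. With 4 pairs at the smallest p, as in the main test, no adjusted p can be under 0.05, so this outcome says little. With 1 sample left out, where no test at 0.05 is possible (smallest p = 0.0571 by exact permutation), the 4 with Slc1a3 ran from 0.96 to 1.76. The same 5 genes were most like Slc1a3 with a prior count of 0.5.

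The number of called genes was 1689 (822 higher, 867 lower), 782 (418 and 364) with the GABAergic covariate and 186 (124 and 62) with the choroid plexus covariate. Leaving out each sample gave 1079 to 1836 called, 537 to 939 higher and 542 to 897 lower, the lowest without Cont_345. No scaling moved the median log2 fold change of all genes by more than 0.019. Some genes changed sign, and none of them was called in the fit concerned. With 1 surrogate variable they were Cdc42 -0.04, Notch1 0.10 and Pdgfra -0.04, with the choroid plexus covariate Cdc42 -0.11, Clu 0.20, Dbi -0.07 and Notch1 0.22, and with the GABAergic covariate Notch1 0.03. Igf2bp1 was at -0.01 with at least 1 CPM in 4 samples, limma-voom, total counts and upper-quartile scaling and at -0.0 with no filter. With 1 sample left out the ranges that crossed 0 were -0.02 (without Mut_340) to 0.09 for Cdc42, -0.04 (without Cont_370; -0.01 without Mut_340) to 0.17 for Dbi, -0.11 to 0.03 for Fabp5, -0.10 to 0.07 for Igf2bp1, -0.11 to 0.03 for Notch1 and -0.14 (without Mut_337) to 0.28 for Pdgfra. No paired analysis was run because the labels give no batch, litter or pairing of samples.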

Other observations

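Genes of later glial cells split. Of 16 tested, 2 rose and 5 fell, where 5.34% of all tested genes rose and 5.64% fell (median log2 fold change -0.23). The 2 that rose were Slc1a2 and Olig2, a factor of ventral progenitors and oligodendrocyte precursors (3.65; edgeR, adjusted p = 0.000548). Aldoc, a glycolytic enzyme of astrocytes and radial glia, had 226, 256, 274 and 148 CPM in Cont_294, Cont_345, Cont_365 and Cont_370 and 112, 79.2, 48.6 and 94.1 CPM in Mut_295, Mut_317, Mut_337 and Mut_340, without overlap (log2 fold change -1.44, SE 0.302; edgeR, adjusted p = 0.0267). Sparcl1 (-0.47), Clu (-0.59) and Gja1, a gap junction gene (-0.28), were also among those that fell. Sparcl1 stayed called in all 8 leave-one-out fits. Aldoc lost its call without Cont_294, Cont_345, Cont_365, Mut_317 or Mut_340 (adjusted p up to 0.0824). Clu was called only without Mut_295 or Mut_340 (up to 0.133 otherwise) and Gja1 only without Cont_370 or Mut_337 (up to 0.111 otherwise). With the choroid plexus covariate 0 of the 7 were called, and with the GABAergic covariate 3. Over all tested genes 186 and 782 were called with these covariates, in that order, against 1689 with neither. The log2 fold change of Clu changed sign with the choroid plexus covariate, to 0.20 (edgeR, adjusted p = 0.592). Fgfr3 (0.40) and Pdgfra (0.13) were not called by edgeR, though Fgfr3 was called higher by DESeq2 (adjusted p = 0.0351) and by edgeR with 1 surrogate variable (0.57, adjusted p = 0.0277), and Gfap, S100b and Sox10 had too few counts to be tested.

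Lin28b, which blocks the maturation of let-7 microRNAs, was the gene of the Hmga and Lin28 list nearest to a call. It had 11.1, 7.15, 6.79 and 13.8 CPM in Cont_294, Cont_345, Cont_365 and Cont_370 and 15.4, 15.0, 19.5 and 15.4 CPM in Mut_295, Mut_317, Mut_337 and Mut_340. Every Sufu-cKO sample was above every control (log2 fold change 0.75, SE 0.215; edgeR, adjusted p = 0.0523). It was called higher by DESeq2 (adjusted p = 0.00318) and limma-voom (adjusted p = 0.028), and by edgeR without robust estimation (adjusted p = 0.0438) or without Cont_370 (adjusted p = 0.00722). In the other leave-one-out fits its adjusted p reached 0.124. Lin28b and Hmga2 were both highest in Cont_370 and Mut_337 of their genotypes and both lowest in Cont_365 among controls. Their lowest Sufu-cKO samples differed, with Lin28b lowest in Mut_317, where Hmga2 was next to highest, and Hmga2 lowest in Mut_340.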
